A study of Mus musculus with 12 samples.

Results

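L1Md_A, L1Md_Gf, L1Md_T, L1Md_F and L1Md_F2 are LINE-1 (L1) families of the mouse genome, and their transcripts were counted by repeat name in total RNA from mouse embryonic stem (ES) cells. The families were taken by those exact names with the repeat family L1, which gave 5 of the 131 L1 names and of the 1387 repeat names measured. All 5 passed the filter on low values, as did 1170 of all repeat names and 126 of the L1 names. The study compared TT2 ES cells without Rlf and Zfp292, a pair of genes for zinc finger proteins, with wild-type (WT) cells, before and after differentiation. There were 4 groups of 3 libraries. Double knockout (DKO) cells after retinoic acid (RA) and WT cells after RA had spent 72 hours without leukemia inhibitory factor (LIF) in 5 µM RA. DKO cells in serum/LIF and WT cells in serum/LIF were kept undifferentiated with LIF. RA and the loss of LIF changed together and cannot be told apart, so "with RA" below means both. All groups share the TT2 line and a gelatin-coated dish with a medium of serum replacement and fetal bovine serum. The labels name biological replicates but not whether these were separate clones or cultures, so p-values measure the spread between these libraries, and 1 knockout clone cannot be told apart from the genotype.

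L1 elements are retrotransposons that copy themselves through an RNA. A full-length element has a 5′ promoter, an RNA-binding protein (ORF1p) and a protein with endonuclease and reverse transcriptase activity (ORF2p). Mouse L1Md families are named for the repeated promoter units, called monomers, at their 5′ end: the A, T (also written Tf), Gf and F types. The A, T and Gf families include copies still able to move, while the F families are regarded as an older lineage. In ES cells L1 is held down by DNA methylation, by H3K9 methylation through SETDB1 and TRIM28, and by the HUSH complex with MORC2.

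The files give reads per repeat name, summed over all copies of a family, and young copies are nearly identical. How reads that map to several copies were counted is not given in the sources used here, so reads may have been shared out between related families, and a family's level need not come from its promoter. Lengths of the families were not used, so the levels below are not per length and are compared within a family across libraries.

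Library totals ran from 2164824 to 3121854 reads in the repeat table and from 30869766 to 40236799 in the gene table. The 5 families held 22767 to 37453 reads per library. Zfp292 had 0 reads in the DKO libraries (a count of 0 allows up to 3), and Rlf had 6 reads over the DKO libraries in serum/LIF and 1 read over those after RA, while in WT cells Zfp292 averaged 3166 normalized counts after RA and 4909 in serum/LIF, and Rlf 2611 and 3611. One library stood apart: in WT replicate 2 after RA, ribosomal RNA repeats took 41.7% of the repeat reads, and in the libraries as a whole the median was 5.84%. Values without it are given for the tests of the families and for part of the other L1 repeats, L1-acting genes and markers. Marker genes of ES cells were all detected in serum/LIF, and those of RA-treated cells summed to 53863 to 54908 normalized counts in DKO and 55116 to 56051 in WT libraries after RA. Single markers differed within those sums. Stra6 averaged 1583 in DKO and 7670 in WT cells after RA, while Crabp2 averaged 14564 and 11247.

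L1Md_T changed most in absolute level. It had 21321, 20346 and 20242 normalized counts (reads divided by the library's size factor) in replicates 1 to 3 of DKO cells after RA, against 11243, 11877 and 11512 in WT cells after RA. In serum/LIF it had 8960.4, 8695 and 9832 normalized counts in DKO cells, against 7556, 7342 and 6818 in WT cells. No group overlapped another, and the order of the groups was DKO after RA, WT after RA, DKO in serum/LIF, WT in serum/LIF.

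L1Md_Gf had the same order of group means as L1Md_T, at a far lower count. Its normalized counts were 745, 680.1 and 634 in DKO cells after RA, against 319, 356 and 366 in WT cells after RA. In serum/LIF the values were 229, 172 and 265 in DKO cells, against 141, 137 and 140.3 in WT cells. The DKO libraries in serum/LIF were spread widely (222 ± 47.1, SD, n = 3), yet the lowest of them was above every WT library.

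L1Md_A moved little. It had 2657, 2464 and 2647 normalized counts in DKO cells after RA, against 1961, 2301 and 2034 in WT cells after RA. DKO cells in serum/LIF had 2147, 2224 and 2500.2 normalized counts, against 1959, 1962 and 1855 in WT cells. DKO and WT libraries did not overlap in either condition, but within a genotype the RA and serum/LIF libraries did.

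L1Md_F went the other way with RA. After RA it had 863, 847 and 849 normalized counts in DKO cells, against 721, 590.1 and 644 in WT cells. Its values in serum/LIF were 1910.2, 1948.5 and 2072 in DKO cells, against 1669.9, 1728 and 1842 in WT cells. Every RA library was lower than every serum/LIF library.

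L1Md_F2 varied least. Its normalized counts after RA were 11630, 11794 and 11267 in DKO cells, against 10282, 11375 and 10394 in WT cells. In serum/LIF they were 12833, 12564 and 12864 in DKO cells, against 11515, 11068 and 11536 in WT cells. The genotypes overlapped after RA, where WT replicate 2 lay above the lowest DKO library, and did not overlap in serum/LIF.

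**Figure D1:**
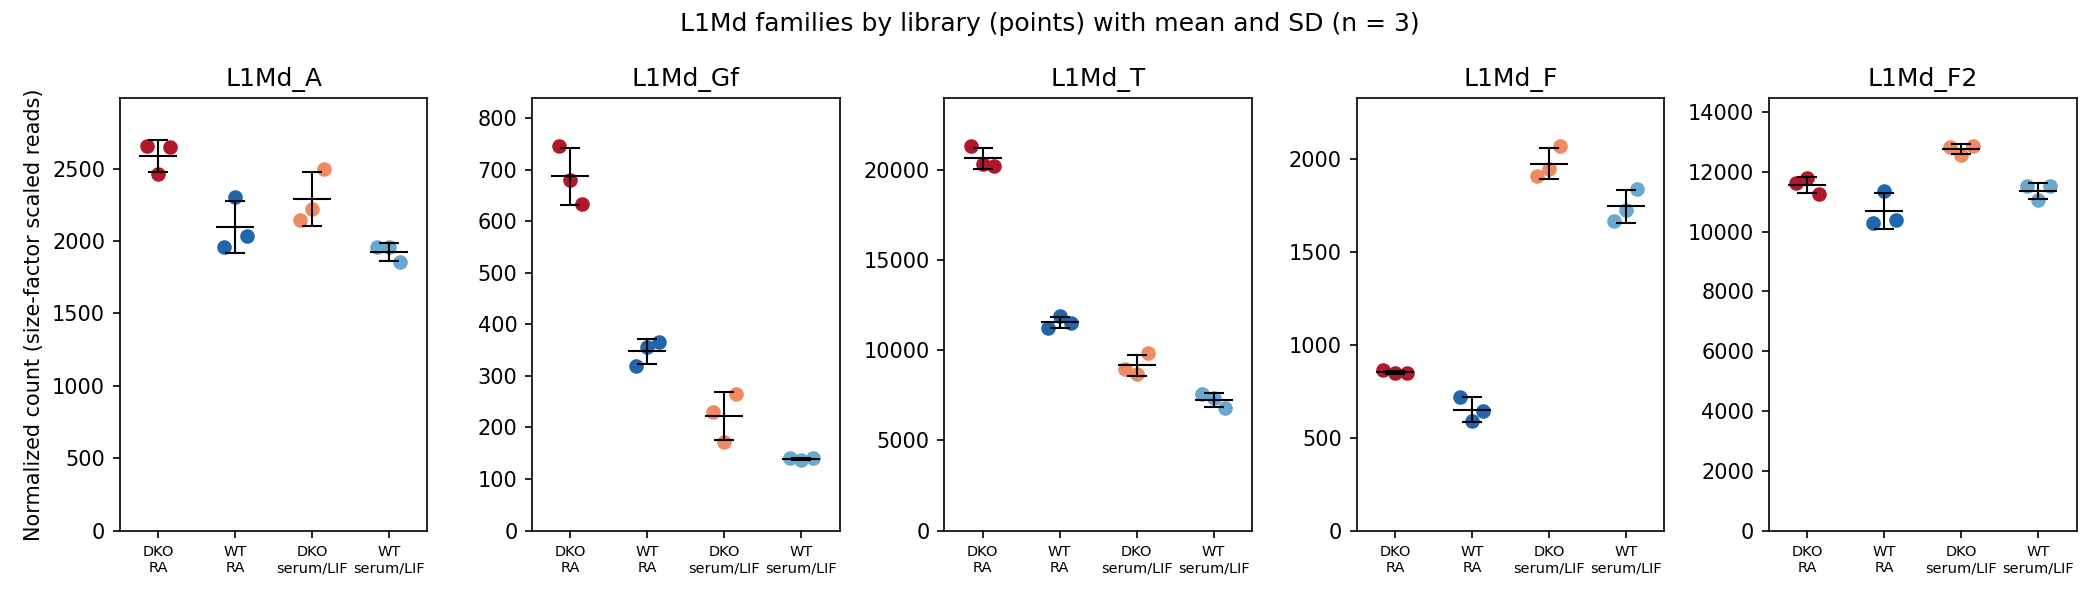
Normalized counts of each L1Md family on a linear axis from 0, one panel per family, by group (DKO after RA, WT after RA, DKO in serum/LIF, WT in serum/LIF). Points are libraries and bars the mean with SD (n = 3). L1Md_T and L1Md_Gf are highest in DKO cells after RA (means of 20636 and 686), and L1Md_F is lowest after RA (853 in DKO and 652 in WT cells).

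The comparison of DKO with WT cells after RA asked how the loss of both zinc finger genes acts in differentiating cells. L1Md_Gf rose 1.98-fold and L1Md_T 1.79-fold in DKO cells. L1Md_F rose 1.31-fold and L1Md_A 1.23-fold, and L1Md_F2 rose 1.08-fold. The log2 fold changes were 0.98 ± 0.12 (SE) for L1Md_Gf, 0.84 ± 0.04 for L1Md_T, 0.39 ± 0.07 for L1Md_F, 0.31 ± 0.06 for L1Md_A and 0.12 ± 0.03 for L1Md_F2. These are differences on the log2(normalized count + 1) scale from a limma fit over all 1170 repeats, and a change was called where the Benjamini-Hochberg adjusted p was under 0.05. Adjusted p was 2.02e-06 for L1Md_Gf, 1.90e-12 for L1Md_T, 0.000111 for L1Md_F, 0.000711 for L1Md_A and 0.0282 for L1Md_F2. All 5 families were called, where 11.0% of all repeats were called, 5.47% higher and 5.56% lower.

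Among the 1170 repeats ordered by fold change, L1Md_Gf was number 17 and L1Md_T number 25. In 4 families, all but L1Md_F2, the DKO and WT libraries did not overlap. Of all repeats, 27.3% had groups that did not overlap and 12.6% did so with DKO higher. Without WT replicate 2 the log2 fold changes were 1.00 for L1Md_Gf, 0.86 for L1Md_T, 0.32 for L1Md_F, 0.37 for L1Md_A and 0.16 for L1Md_F2, and all 5 were again called. The call of L1Md_F2 was lost when DKO replicate 1 (adjusted p = 0.0937), DKO replicate 2 (0.145), WT replicate 1 (0.164) or WT replicate 3 (0.122) was left out, and the authors' deposited table gives it an adjusted p of 0.065. RNA was measured in bulk, so more cells that express a family and more RNA per cell cannot be told apart.

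In serum/LIF the genotypes differed in the same direction. L1Md_Gf rose 1.59-fold in DKO cells, a log2 fold change of 0.65 ± 0.12 (limma adjusted p = 0.000819). L1Md_T rose 1.27-fold (0.34 ± 0.04 on the log2 scale, adjusted p = 8.04e-06). Smaller increases were called for L1Md_A (1.19-fold, 0.25 ± 0.06, adjusted p = 0.00768) and L1Md_F2 (1.12-fold, 0.17 ± 0.03, adjusted p = 0.00199). L1Md_F was not called, with a log2 fold change of 0.18 ± 0.07 and an adjusted p of 0.0944, although its 3 DKO libraries were all above its 3 WT libraries.

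Thus 4 of 5 families were called, all higher, where 9.83% of all repeats were called, 5.56% higher and 4.27% lower. The libraries of the genotypes did not overlap in any of the 5 families, with DKO higher, a pattern that 13.5% of all repeats had, out of 26.8% with no overlap in either direction. L1Md_A lost its call without DKO replicate 3 (log2 fold change 0.18, adjusted p = 0.0667). The count of repeats called fell to 73 without DKO replicate 1 and to 72 without WT replicate 2, against 115 with all libraries. Scaled to the summed LINE, SINE, LTR and DNA repeats instead, 48 repeats were called higher and 80 lower, against 65 and 50 with the deposited size factors, and the 4 families kept their calls.

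**Figure D2:**
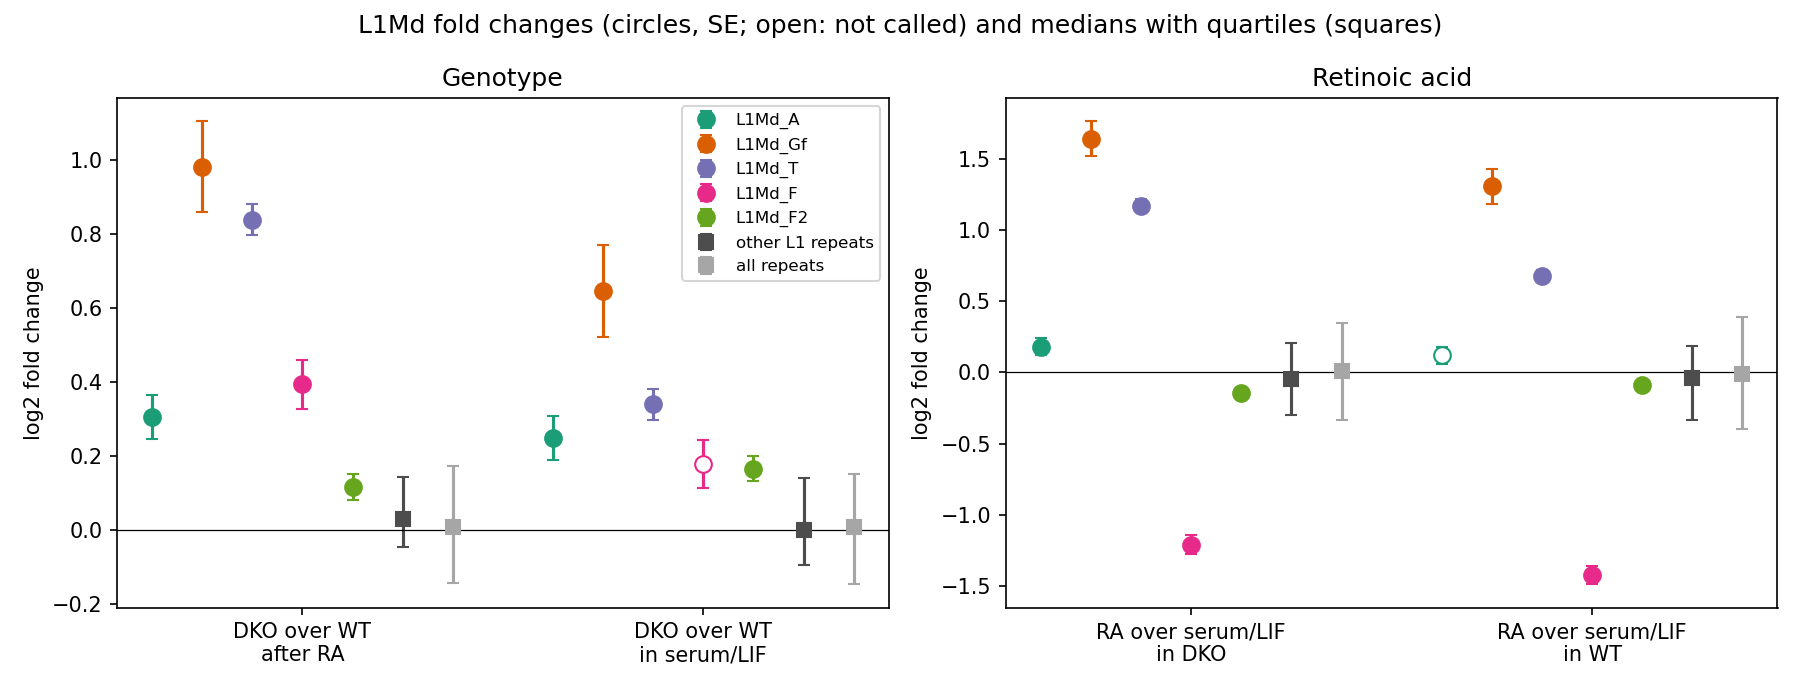
Log2 fold changes of the L1Md families for the genotype comparisons (left) and for RA over serum/LIF (right). Circles are families with the SE (open where not called), and squares are the medians of the other 121 L1 repeats and of all 1170 repeats with their quartiles. In DKO over WT after RA, L1Md_Gf (0.98) and L1Md_T (0.84) lie far above the medians of 0.03 and 0.01, and with RA L1Md_F lies below zero (-1.21 in DKO and -1.43 in WT cells).

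The comparison of RA with serum/LIF asked how the families change as ES cells differentiate. In DKO cells L1Md_Gf rose 3.09-fold and L1Md_T 2.25-fold, while L1Md_F fell 2.32-fold. L1Md_A rose 1.13-fold, and L1Md_F2 fell by 0.14 on the log2 scale. The log2 fold changes in DKO cells were 1.64 ± 0.12 for L1Md_Gf, 1.17 ± 0.04 for L1Md_T, 0.18 ± 0.06 for L1Md_A, -0.14 ± 0.03 for L1Md_F2 and -1.21 ± 0.07 for L1Md_F. Their limma adjusted p values were 3.75e-11, 8.22e-16, 0.016, 0.00146 and 4.50e-14 in that order. All 5 families were called, 3 higher and 2 lower, where 46.3% of all repeats were called, 23.4% higher and 22.9% lower. The RA and serum/LIF libraries did not overlap in 4 families, all but L1Md_A, as in 54.2% of all repeats (27.3% with RA higher).

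WT cells showed the same ranking of the families. L1Md_Gf rose 2.49-fold (1.31 ± 0.12 on the log2 scale, adjusted p = 1.85e-09) and L1Md_T 1.59-fold (0.67 ± 0.04, adjusted p = 1.39e-11). L1Md_F fell 2.68-fold (-1.43 ± 0.07, adjusted p = 1.11e-15). The change of L1Md_F2 was -0.09 ± 0.03 with an adjusted p of 0.0301, and that of L1Md_A was 0.12 ± 0.06 and not called (adjusted p = 0.0976). Of the 5 families 4 were called, 2 higher and 2 lower, where 50.0% of all repeats were called, 24.7% higher and 25.3% lower. The libraries did not overlap for L1Md_Gf, L1Md_T and L1Md_F, as in 56.1% of all repeats (27.9% with RA higher). Without WT replicate 2 the log2 fold changes were 1.29 for L1Md_Gf, 0.65 for L1Md_T, 0.05 for L1Md_A, -0.14 for L1Md_F2 and -1.36 for L1Md_F.

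The small RA changes depended on how libraries were scaled. When the repeat reads were scaled by the size factors of the gene table, the median of all repeats moved to -0.24 in DKO and -0.34 in WT cells, from which the families' changes have to be read. On that scale L1Md_A was -0.07 in DKO cells (adjusted p = 0.422) and -0.21 in WT cells (adjusted p = 0.00651), each above that median. L1Md_T was 0.93 in DKO cells and 0.34 in WT cells, and L1Md_Gf was 1.40 and 0.98, all still called. Scaled to the summed LINE, SINE, LTR and DNA repeats, the median was 0.17 in DKO and 0.12 in WT cells, and L1Md_F2 was 0.02 and 0.04, with no call. The direction of L1Md_A and L1Md_F2 with RA thus differed between the 3 scales, and that of L1Md_Gf, L1Md_T and L1Md_F did not.

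Leaving out single libraries also ended some of these small calls. For L1Md_A in DKO cells the call was lost without DKO replicate 1 after RA (adjusted p = 0.0655), DKO replicate 3 after RA (0.0688), DKO replicate 1 in serum/LIF (0.112) or DKO replicate 2 in serum/LIF (0.0598). In WT cells L1Md_A was called higher without WT replicate 1 after RA (adjusted p = 0.0371). L1Md_F2 in WT cells lost its call without WT replicate 1 (0.158) or 3 (0.132) after RA, or WT replicate 1 (0.0818) or 3 (0.0923) in serum/LIF. Over all repeats, 274 were called higher and 268 lower with RA in DKO cells, against 153 and 470 with gene size factors and 404 and 173 with the repeat totals. In WT cells the counts were 289 and 296, against 155 and 562 and against 371 and 224.

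L1Md_T was the family whose genotype difference was larger after RA than in serum/LIF by the test of that difference. The log2 fold change of DKO over WT was 0.50 ± 0.06 greater after RA (limma interaction term, adjusted p = 8.27e-06), and it was 0.52 without WT replicate 2 after RA. The difference was 0.34 ± 0.17 for L1Md_Gf (adjusted p = 0.299), 0.21 ± 0.09 for L1Md_F (0.189), 0.06 ± 0.08 for L1Md_A (0.776) and -0.05 ± 0.05 for L1Md_F2 (0.625), none of which was called. Without WT replicate 2 after RA these values were 0.36 for L1Md_Gf, 0.15 for L1Md_F, 0.13 for L1Md_A and -0.0041 for L1Md_F2, again with no call. That of L1Md_Gf ran from 0.16 without DKO replicate 2 in serum/LIF to 0.47 without DKO replicate 3 in serum/LIF. Of all repeats 6.67% were called, 33 (2.82%) higher and 45 (3.85%) lower. With gene size factors those counts were 42 and 29, and with the repeat totals 38 and 33. L1Md_T remained called on each of these scales, with values of 0.58 and 0.53.

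Ratios between families within a library do not depend on the scaling of that library, although they share the limits of the counting named above. There were 10 pairs of the 5 families, which are not independent of each other. Each ratio was compared between DKO and WT libraries within both conditions by an exact two-sided permutation test over 400 regroupings, whose smallest p is 0.005, with Benjamini-Hochberg adjustment over the 10 pairs. In DKO cells the ratio of L1Md_Gf to L1Md_F2 was higher by 0.67 on the log2 scale, that of L1Md_Gf to L1Md_F by 0.53 and that of L1Md_T to L1Md_F2 by 0.45, each with an adjusted p of 0.01. L1Md_A fell by 0.54 relative to L1Md_Gf and by 0.31 relative to L1Md_T, with the same adjusted p of 0.01 from the permutation test. L1Md_T relative to L1Md_F was higher by 0.30 (permutation adjusted p = 0.0167).

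These are means of the 2 conditions, which were not alike for every pair. L1Md_T relative to L1Md_F2 was higher in DKO cells by 0.72 after RA and by 0.17 in serum/LIF, and relative to L1Md_F by 0.45 and 0.16. L1Md_A relative to L1Md_T differed by -0.53 after RA and -0.09 in serum/LIF, and relative to L1Md_Gf by -0.68 and -0.40. L1Md_Gf relative to L1Md_F2 was higher by 0.87 after RA and 0.48 in serum/LIF, and relative to L1Md_F by 0.59 and 0.47. The difference between the conditions was not tested for the ratios.

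The 2 remaining calls had less margin. L1Md_Gf relative to L1Md_T was higher by 0.22 in DKO cells (permutation adjusted p = 0.0286), and the call was lost, at adjusted p of 0.05 to 0.0938, without any of WT replicates 1 to 3 and DKO replicate 3 in serum/LIF or DKO replicate 1 and WT replicates 1 and 2 after RA. L1Md_A relative to L1Md_F2 was higher by 0.14 (permutation adjusted p = 0.0375), and it kept the call only without DKO replicate 1 or WT replicate 2 in serum/LIF or DKO replicate 2 after RA, with adjusted p of 0.05 to 0.0813 without any of the other 9 libraries. Without WT replicate 2 after RA, 6 of the 10 ratios were called. The ratio of L1Md_F to L1Md_F2 (0.15, permutation adjusted p = 0.0889) and that of L1Md_A to L1Md_F (-0.01, permutation adjusted p = 0.935) were not called. L1Md_A relative to L1Md_F was -0.09 after RA and 0.07 in serum/LIF. Thus L1Md_T and L1Md_Gf were higher in DKO cells relative to each of L1Md_A, L1Md_F and L1Md_F2.

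With RA, all 10 ratios changed at the smallest permutation p of 0.005, taken within both genotypes. L1Md_Gf relative to L1Md_F was higher after RA by 2.79 on the log2 scale, L1Md_T relative to L1Md_F by 2.24 and L1Md_A relative to L1Md_F by 1.47. L1Md_Gf relative to L1Md_T was higher by 0.55, and L1Md_A relative to L1Md_T fell by 0.77. The F names did not move as one, since L1Md_F relative to L1Md_F2 fell by 1.20. Without WT replicate 2 after RA all 10 ratios were again called at the same p, and the ratios to L1Md_F were 2.75 for L1Md_Gf, 2.20 for L1Md_T and 1.40 for L1Md_A.

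The mix of L1Md reads followed from this. L1Md_T averaged 56.8% of the reads of the 5 families in DKO cells after RA and 45.6% in WT cells after RA. Its share was 34.7% in DKO and 32.3% in WT cells in serum/LIF. The share of L1Md_F2 was 31.8% in DKO and 42.2% in WT cells after RA, and 48.3% in DKO and 50.7% in WT cells in serum/LIF. L1Md_F averaged 2.35% and L1Md_Gf 1.89% in DKO cells after RA, against 2.58% and 1.37% in WT cells after RA. In serum/LIF L1Md_F averaged 7.49% in DKO and 7.80% in WT cells, and L1Md_Gf 0.838% and 0.622%. L1Md_A kept to a range of 6.82% to 9.08% over the 12 libraries. In WT cells after RA L1Md_T averaged 46.0% and L1Md_F2 41.8% without replicate 2.

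**Figure D3:**
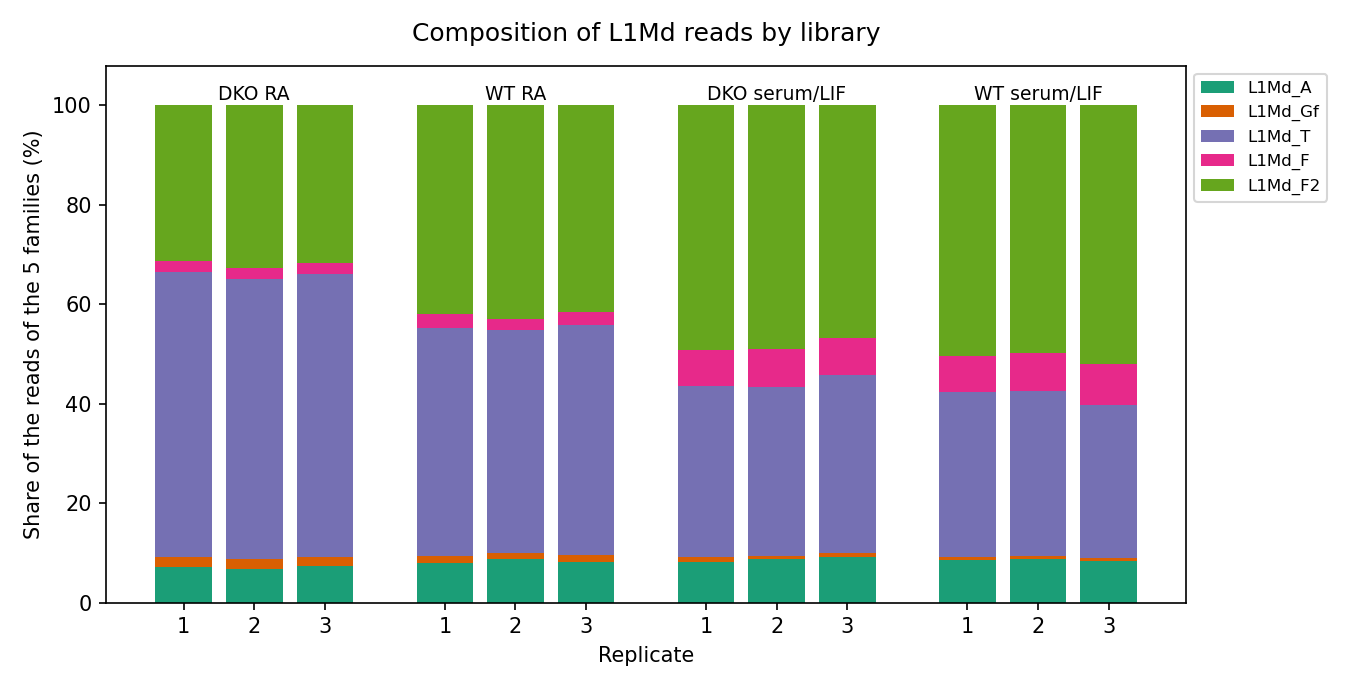
Share of each L1Md family in the reads of the 5 families, in percent, for each of the 12 libraries (replicates 1 to 3 of DKO after RA, WT after RA, DKO in serum/LIF, WT in serum/LIF). L1Md_T makes up a larger part in DKO cells after RA (mean 56.8%) than in WT cells in serum/LIF (32.3%), where L1Md_F2 averages 50.7%.

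As a group, the 5 families took 27.4% to 28.3% of all L1 reads in DKO cells after RA, 20.9% to 21.8% in WT cells after RA, 18.6% to 19.8% in DKO cells in serum/LIF and 16.9% to 17.2% in WT cells in serum/LIF. The 4 ranges did not overlap. Of all repeat reads they took 1.63% to 1.67% in DKO and 0.729% to 1.14% in WT cells after RA, with the lowest value in the WT library rich in ribosomal RNA repeats. In serum/LIF they took 1.10% to 1.16% in DKO and 0.958% to 1.01% in WT cells.

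Of the other L1 repeats, 121 passed the filter. In DKO over WT after RA 10 of them (8.26%) were called higher and 4 (3.31%) lower, beside 5.47% and 5.56% of all repeats. Their median log2 fold change was 0.03, beside 0.39 for the 5 families and 0.01 for all repeats. The 10 became 5 without DKO replicate 1 or 3 or WT replicate 1 and 4 without DKO replicate 2 or WT replicate 3, and the 4 became 2 without DKO replicate 2 or 3 or WT replicate 1. With WT replicate 2 left out the counts were 9 and 3. In serum/LIF 7 (5.79%) were called higher and 3 (2.48%) lower, beside 5.56% and 4.27% of all repeats, with a median of 0.00103. Those 7 became 3 without DKO replicate 1 or 2, 4 without WT replicate 1 or 3 and 2 without WT replicate 2. L1Md_F3, a related name, was -0.04 after RA and -0.05 in serum/LIF, neither called. L1_Mur1, a mouse L1, was higher in DKO than in WT cells after RA by 0.60 ± 0.09 (limma adjusted p = 3.57e-05), which was again 0.60 without WT replicate 2. L1M6B was higher in DKO cells in serum/LIF by 1.53 ± 0.16 (limma adjusted p = 1.81e-07), while after RA it averaged 532 in DKO and 570 in WT cells. Its interaction was -1.64 ± 0.22 (limma adjusted p = 1.89e-05), and that of L1MDb was -1.13 ± 0.23 (0.00262). For the interaction, 4 (3.31%) of the 121 were called higher and 5 (4.13%) lower, beside 2.82% and 3.85% of all repeats. Each count ran from 2 to 5 over all fits.

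With RA, 23 of these 121 repeats (19.0%) were called higher and 32 (26.4%) lower in DKO cells, beside 23.4% and 22.9% of all repeats. In WT cells 19 (15.7%) were called higher and 35 (28.9%) lower, beside 24.7% and 25.3% of all repeats. The balance turned with the scaling. Gene size factors gave 12 higher and 62 lower in DKO cells and 7 and 74 in WT cells, and the repeat totals gave 38 and 19 in DKO cells and 27 and 25 in WT cells. The counts in WT cells were 20 and 34 without WT replicate 2. L1MEi fell the most, with log2 fold changes of -4.18 in DKO and -4.66 in WT cells. Those of Lx2B were -2.54 in DKO and -2.43 in WT cells. L1MEj in DKO cells (-1.58) and L1MEa in WT cells (-2.08) were also called lower, at means of only 10.2 and 9.28 normalized counts after RA, and L1MEj lost its call without DKO replicate 1 after RA (adjusted p = 0.0598). L1M6B rose by 2.14 in DKO and 3.77 in WT cells, L1ME4c by 2.85 and 2.40, and HAL1_SS by 1.67 and 1.87. L1Md_F3 fell, with changes of -0.30 in DKO and -0.31 in WT cells. L1ME3E (0.72) and L1MDb (-0.59), called in DKO over WT after RA, lost their calls in several fits without 1 library, with adjusted p up to 0.114 and 0.121.

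The repeats and genes most like the families in pattern were found from the root mean square (RMS) difference between log2 values centred on their own mean, over the 12 libraries. Among 694 other repeats with a mean of at least 100, those nearest to the mean profile of the families were L1_Mur1 (0.115), the retroviral internal sequence MMERGLN-int (0.127), MER91B (0.138), the IAP internal sequence IAPEz-int (0.143) and the simple repeat (CAAAAA)n (0.154). Among 11865 genes the nearest were Flna (0.0720), which crosslinks actin, Mdm2 (0.0765), the ubiquitin ligase of p53, Ctsd (0.0810), a lysosomal protease, Nnt (0.0837), a mitochondrial transhydrogenase, and Sptan1 (0.0843), a spectrin. The families themselves lay at 0.105 (L1Md_A), 0.235 (L1Md_F2), 0.369 (L1Md_T), 0.664 (L1Md_Gf) and 0.778 (L1Md_F) from that mean, so it stands for L1Md_A better than for the other families. Without WT replicate 2 after RA, 4 of the 5 repeats and 4 of the 5 genes were again among the nearest 5. These distances share libraries and scaling and are a description.

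Genes known to act on L1 were tested in the gene table, in 5 lists with 44 genes, all of which were measured and passed the filter. In DKO over WT after RA 12 rose, 8 fell and 24 were not called, where 42.7% of all genes were called, 22.0% higher and 20.7% lower. In serum/LIF 11 rose, 12 fell and 21 were not called, where 33.2% of all genes were called, 17.8% higher and 15.4% lower. The median log2 fold change of the 44 genes was 0.05 after RA and -0.03 in serum/LIF, beside 0.01 and -0.01 for all genes. After RA 9 were higher and 6 lower in DKO than in WT cells when WT replicate 2 was left out.

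Among DNA methylation genes, Dnmt3l, the cofactor of the de novo DNA methyltransferases, was higher in DKO than in WT cells in both conditions. The difference was 0.72 after RA and 0.52 in serum/LIF (limma adjusted p of 1.30e-12 and 5.93e-10). Dnmt3a, a de novo methyltransferase, was lower in DKO cells by 0.45 in serum/LIF. Tet2, which oxidizes 5-methylcytosine, was higher in DKO cells by 0.51 after RA and lower by 0.84 in serum/LIF. Its interaction was 1.35 ± 0.09 (limma adjusted p = 1.54e-11). Tet3, of the same enzyme family, was higher in DKO cells by 0.33 after RA and by 0.54 in serum/LIF. These genotype differences of Tet2 (0.45) and Tet3 (0.27) after RA were again called without WT replicate 2.

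The changes in this paragraph are of DKO over WT cells within a condition. In that comparison 42.7% of all genes were called after RA and 33.2% in serum/LIF. In the H3K9 methylation list of 10 genes, 4 were higher and 2 lower in DKO cells after RA, and 1 was higher and 3 lower in serum/LIF. Suv39h1, an H3K9 methyltransferase, was lower by 0.27 in DKO cells after RA and higher by 0.59 in serum/LIF. Suv39h2, of the same enzyme family, was higher after RA (0.29 to 0.33 over all fits). Atf7ip, a partner of SETDB1, was lower by 0.58 in serum/LIF. Morc3, a chromatin ATPase of the MORC family, was higher in DKO cells by 0.43 after RA and lower by 0.21 in serum/LIF. Of the 5 genes in the HUSH and MORC list, 2 were higher and 0 lower after RA, and 1 was higher and 1 lower in serum/LIF. Tasor and Mphosph8, subunits of HUSH, were not called between the genotypes in either condition. Pphln1, another HUSH subunit, was called higher in DKO cells in serum/LIF (0.22 to 0.28 over all fits). Morc2a was called higher after RA, a call lost without WT replicate 2. Of the 16 genes that act after transcription, 1 was higher and 4 lower in DKO cells after RA, and 5 were higher and 3 lower in serum/LIF. Zc3hav1, an antiviral RNA-binding protein, was lower by 0.74 after RA. Samhd1, a dNTP hydrolase, was higher by 0.27 after RA and 0.21 in serum/LIF. Apobec3, a cytidine deaminase, was lower by 0.35 in serum/LIF. Also in serum/LIF, Piwil2 was lower (-0.77 to -0.62 over all fits) and Tex19.1 higher (0.27 to 0.36). Of the 5 activators of the L1 promoter, 1 was higher and 1 lower in DKO cells in each condition. Runx1, of a transcription factor family that binds the human L1 promoter, was higher by 1.34 in serum/LIF at a low level (117 ± 31.1 in DKO and 46.2 ± 15.1 in WT cells, SD, n = 3). Yy1 was lower after RA (-0.21 to -0.16 over all fits). Sp1 was called lower in serum/LIF and Ctcf higher after RA, with calls lost in several fits.

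Most of these genes were lower after RA than in serum/LIF in both genotypes. In DKO cells 8 rose, 32 fell and 4 were not called, where 78.3% of all genes were called, 40.2% higher and 38.2% lower. In WT cells 9 rose, 32 fell and 3 were not called, where 80.6% were called, 41.4% higher and 39.2% lower. Dnmt3b, a de novo methyltransferase, fell, with log2 fold changes of -3.67 in DKO and -3.57 in WT cells, as did Dnmt3l (-2.95 and -3.16). Trim28 was at -1.28 in DKO and -1.44 in WT cells, and Tasor at -1.32 and -1.41. All 5 genes of the HUSH and MORC list fell in both genotypes. Tet3 rose by 2.12 in DKO and 2.34 in WT cells, and Suv39h1 by 1.44 and 2.30. In WT cells 9 rose and 31 fell when replicate 2 after RA was left out. L1Md_T and L1Md_Gf rose and L1Md_F fell in the same libraries, and whether these gene changes bear on the families was not tested.

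**Figure D4:**
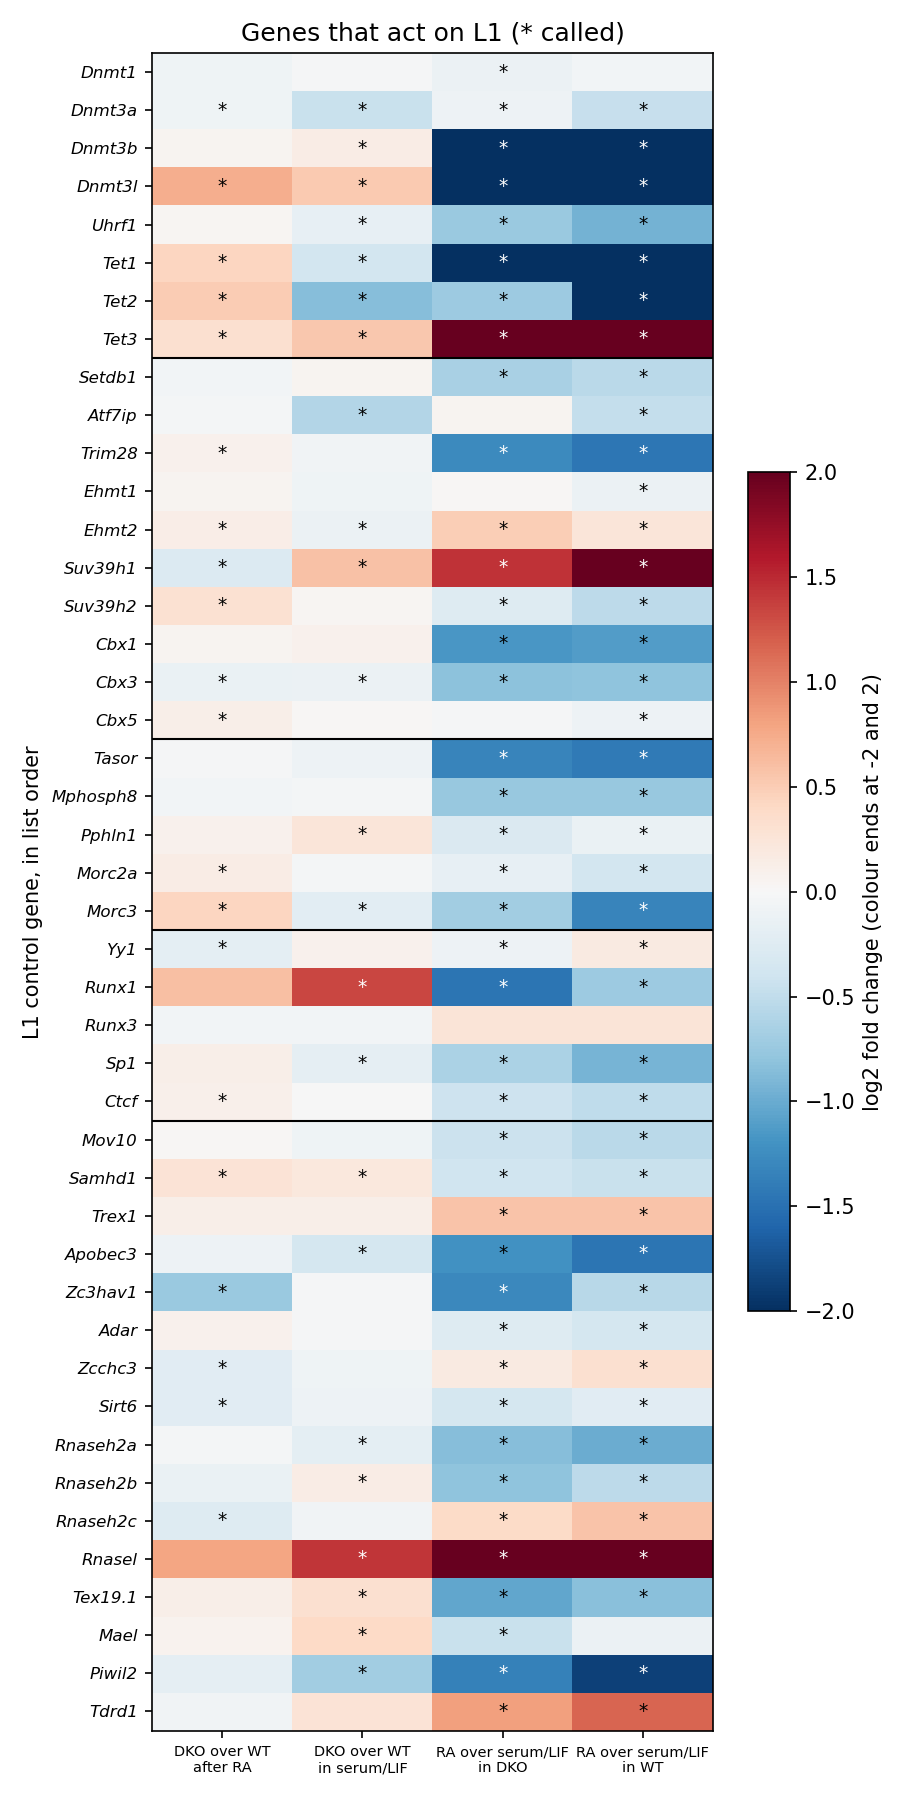
Log2 fold changes of the 44 genes known to act on L1, in the order of their lists (DNA methylation, H3K9 methylation, HUSH and MORC, activators of the L1 promoter, restriction after transcription), for DKO over WT after RA and in serum/LIF and for RA over serum/LIF in DKO and WT cells. Stars mark calls. Blue dominates with RA (32 of 44 fell in each genotype), and both colours appear between DKO and WT cells (12 rose and 8 fell after RA).

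Marker genes of cell types moved with the groups as well. Their counts are to be read beside the shares of the whole tested gene table at the same threshold. Between genotypes after RA, 22.0% of the table was up and 20.7% down in DKO cells. In serum/LIF the shares were 17.8% up and 15.4% down. With RA, 40.2% was up and 38.2% down in DKO cells, against 41.4% and 39.2% in WT cells. The 8 ES cell markers summed to 10286 to 11146 normalized counts in DKO and 5377 to 5889 in WT cells after RA, and all 8 rose in DKO cells (7 without WT replicate 2). In serum/LIF they summed to 136974 to 140608 in DKO and 154196 to 159272 in WT cells, with 5 of 8 lower. The 8 markers of two-cell-like cells, a rare state in ES cultures, summed to 86.3 to 106 in DKO and 3431 to 3556 in WT cells after RA, where all 8 were lower in DKO cells (6 without WT replicate 2), and to 2.35 to 13.5 in DKO and 167 to 177 in WT cells in serum/LIF, where Tcstv1, Tcstv3 and Zfp352 had 0 reads in DKO cells. With RA over serum/LIF, 6 of the 8 two-cell-like markers were called higher in DKO cells and all 8 in WT cells (6 without WT replicate 2).

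The 8 fibroblast markers summed to 63309 to 65949 in DKO and 49854 to 51485 in WT cells after RA, with 4 of 8 higher. The count was again 4 without WT replicate 2. The other 4, Col1a2, Pdgfrb, Lum and Dcn, were not called and had lower means in DKO cells. The median log2 fold change of the 8 was 0.04. In serum/LIF they summed to 22076 to 23407 in DKO and 7331 to 7387 in WT cells, with 7 of 8 higher. The 6 germ cell markers summed to 3376 to 3479 in DKO and 1796 to 1970 in WT cells after RA, with 4 higher, and to 7193 to 7410 in DKO and 6224 to 6348 in WT cells in serum/LIF, with 4 higher and 1 lower. Without WT replicate 2, 4 germ cell markers were again higher in DKO cells after RA. For fibroblast and germ cell markers too, the whole gene table is the measure, with 22.0% up after RA and 17.8% up in serum/LIF. The part of these cell types in the L1Md differences was not tested.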

How the data were processed

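Total RNA was sequenced as paired-end reads, per the labels' protocols, although another label names genomic DNA. Per the submitters' processing notes, Trim Galore 0.6.10, STAR 2.7.11b, featureCounts (Subread 2.0.6) and DESeq2 1.44.0 were used with mm10. How strand and reads with several hits were handled is not stated there. The deposited library columns hold a normalized signal, and dividing by the step of each column gave whole reads within 0.01 for all values, so it is a read count over a size factor. The authors also deposited log2 fold changes with standard errors, Wald scores, p-values and adjusted p-values, per the file headers. Of these only adjusted p-values are quoted.

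Values were tested as log2(value + 1) with limma 3.58.1 (R 4.3.3, trend and robust settings), 1 fit of all 12 libraries per table with 4 group means, over repeats or genes with at least 10 in 3 or more libraries (1170 repeats and 15750 genes), with Benjamini-Hochberg adjustment and a threshold of 0.05. The labels name no batch. The fit was also run on simulated counts with changes set only in DKO cells in serum/LIF, and no result here rests on it. Same-numbered replicates did not deviate together (correlations of -0.06 to 0.05), so no replicate block was used. edgeR 4.0.16 and DESeq2 1.42.0 on whole reads, other scalings, pseudocounts, filters, fits and each library left out were alternatives.

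The families and gene lists were chosen with earlier results of these data known. Named repeats and genes are the families, L1Md_F3, Rlf, Zfp292, the 3 highest and 3 lowest other L1 repeats by fold change in each comparison (only called ones are described) and the 5 nearest in pattern. Up to 4 called genes per list and comparison with the smallest adjusted p qualified, and values are given for some of those whose calls held in all alternatives. Mael and Piwil2 are in both the restriction and the germ cell lists. The values without WT replicate 2 for shares, markers, directions of L1-acting genes and likeness were added after seeing the data. No L1 sequence is shown.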

Additional observations from a re-analysis of the deposited data

Results flagged for a closer look

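The genotype difference of L1Md_T differed between the conditions. DKO over WT was a log2 fold change of 0.84 after RA and 0.34 in serum/LIF, and the difference of 0.50 was tested as an interaction term (limma adjusted p = 8.27e-06). All 3 DKO libraries were above all 3 WT libraries in each condition. Over 22 alternatives the value ran from 0.46 to 0.58 and remained called, with the highest adjusted p at 0.0165.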

How the results depend on the processing

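L1Md_Gf and L1Md_T kept their direction and call in the 4 comparisons under all 23 alternatives. So did L1Md_F in the RA comparisons and in DKO over WT after RA, and L1Md_A in DKO over WT after RA. Of 570 values for the families, 537 kept direction and side of the threshold, 25 lost the call, 3 gained one and 5 reversed. Of 1832 values for named genes, 1775 were the same and 57 lost the call.

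limma without trend and robust settings called 2 families in DKO over WT in serum/LIF and 3 with RA in DKO cells, and 62 repeats in serum/LIF, 47 for the interaction and 13 L1-acting genes in DKO over WT after RA. With single libraries left out, repeats called in serum/LIF ran from 72 to 117. Gene size factors reversed L1Md_A with RA (-0.067 in DKO, -0.210 in WT), the L1Md_F2 interaction (0.0358) and L1Md_F3 in DKO over WT after RA (0.0211), and ended the call of L1Md_F2 in serum/LIF (adjusted p = 0.0748). In DKO over WT after RA they gave 80 repeats called higher and 37 lower, against 64 and 65. Scaling to LINE, SINE, LTR and DNA totals reversed L1Md_F2 with RA (0.0208 in DKO, 0.0398 in WT) and called L1Md_A higher in WT cells (0.25). edgeR on the recovered reads called 130 repeats in DKO over WT after RA and 115 in serum/LIF, L1Md_F among the 115 (adjusted p = 0.0464), and ended the calls of L1Md_F2 in DKO over WT after RA (0.0645) and with RA in WT cells (0.0704). DESeq2 also ended both (0.0650 and 0.0871), and a fit of only the 2 groups that with RA in WT cells (0.0603). The L1Md_F3 interaction was -0.000984 with TMM and -0.0348 to 0.0541 with libraries left out, and the ratio of L1Md_A to L1Md_F between genotypes ran from -0.0705 to 0.0592 with libraries left out. Where not shown by the construction, the cause was not tested.

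With a replicate block no call of a family changed, and 105 repeats were called in serum/LIF. For the family ratios between genotypes the block (sign flips over 6 same-numbered pairs, smallest p 0.03125) called 0 of 10, with adjusted p of 0.0521 at best, and the labels tie the numbers to no pairing. The block also ended 3 calls of genes, Ehmt2 and Cbx3 in serum/LIF and Yy1 with RA in DKO cells. L1Md_Gf, with the fewest reads of the families, had the largest SE (0.12).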

Other observations

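Each family had its own nearest neighbours in pattern among 698 other repeats, by the RMS difference of centred log2 values over the 12 libraries. L1Md_T was nearest to IAP-d-int (0.167), the internal sequence of an IAP retrovirus. L1Md_Gf was nearest to another IAP internal sequence, IAPEY4_I-int (0.285), and lay at 0.321 from L1Md_T. L1Md_F was nearest to the SINE B2_Mm1a (0.166), L1Md_F2 to the DNA transposon MER5B (0.0451) and L1Md_A to the simple repeat (GGCTG)n (0.114). The distances are a description with no test.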
